A study of Mus musculus with 3 samples.

Results

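Aldosterone-sensitive distal sodium transport was followed through 10 genes: the mineralocorticoid receptor gene *Nr3c2*, its enzymatic gatekeeper *Hsd11b2*, the epithelial sodium channel (ENaC) subunit genes *Scnn1a*, *Scnn1b* and *Scnn1g*, the ubiquitin ligase gene *Nedd4l*, the kinase genes *Wnk1*, *Wnk4* and *Stk39*, and the thiazide-sensitive cotransporter gene *Slc12a3*. They were read through all probe sets whose platform annotation gives 1 of these symbols and no other, which were 20 of the 45101 probe sets on the array. A probe set is a group of short oligonucleotides that reads 1 stretch of transcript, and each value is its MAS5 signal, a background-corrected brightness on a linear scale.

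The arrays held kidney RNA of male C57BL/6J mice aged 16 weeks: 1 array of uninephrectomy alone and 2 of a cardio-renal syndrome model (called cardio-renal arrays 1 and 2 here). In the model the abdominal aorta was constricted, at a level the labels put under the branching of the renal arteries, and 1 kidney was removed 2 weeks later; the remaining kidney was taken 6 weeks after its partner in both groups. The design text names sham operations, without saying which sample had one. No label tells if the RNA on an array came from 1 mouse or several, so the spread between the cardio-renal arrays may be technical or biological. The whole homogenized kidney was measured, in which fewer cells of a type and less RNA per cell cannot be told apart.

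Aldosterone acts on the last segments of the nephron, the distal convoluted tubule, connecting tubule and collecting duct. There it binds the mineralocorticoid receptor, a nuclear receptor that glucocorticoids would also occupy if 11-beta-hydroxysteroid dehydrogenase type 2 did not inactivate them. The receptor's targets include the kinase SGK1, which restrains the ligase NEDD4-2 and so leaves more ENaC in the apical membrane. In the distal convoluted tubule, WNK kinases activate SPAK, which phosphorylates and activates the sodium chloride cotransporter NCC.

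Some features of the arrays touch every value below. Median MAS5 signals were close, at 100.1 for uninephrectomy alone and at 106 and 102 for cardio-renal arrays 1 and 2. Cardio-renal array 1 stood apart in male-biased kidney genes: the 8 listed had a median log2 difference from the uninephrectomy array of -1.96 on array 1 and 0.12 on array 2, with summed signals of 113076 with uninephrectomy alone, 55995 on array 1 and 120748 on array 2. Of 4 female-biased genes, 3 were higher on both cardio-renal arrays and 1 lower, against 30.6% and 29.7% of all genes by their brightest probe set. Their median log2 differences were 1.44 on array 1 and 0.21 on array 2. They did not move as 1: on array 1 *Slc7a12* stood at 4.64 and *Slc22a7* at -3.04. *Slc7a12* was also higher on array 2, at 1.58. Both cardio-renal arrays carried heart muscle transcripts: all 12 heart genes of a list chosen with their behaviour known were higher on both, with summed signals of 508 with uninephrectomy alone and of 2564 and 1955 on the cardio-renal arrays. Of the 12, 5 reached the filter on dim signals given below. All 5 were higher on both, against 30.6% of all genes past it by their brightest probe set. The dim *Nppa* had signals of 46.1 with uninephrectomy alone, 162 on array 1 and 56.0 on array 2. The heart markers *Tnni3* and *Mb* had signals of 1.97 and 3.81 with uninephrectomy alone, far under that array's median. The part of either feature in the values of the sodium transport genes was not tested.

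Of the 10 genes *Scnn1b* lay furthest above the uninephrectomy array, and none of their probe sets that were tested passed limma's adjusted threshold. Of the 20 probe sets, 17 reached the filter on dim signals, a mean log2(signal + 28.8) of 7.02. The median size of the mean log2 difference, whatever its sign, was 0.14 over these 17 and 0.12 over all 22493 probe sets that reached the filter. With its sign, the median log2 difference of the 17 was 0.096 on array 1 and 0.016 on array 2, beside 0.020 and -0.0062 over all. Both cardio-renal arrays lay above the uninephrectomy array for 8 of the 17 probe sets, against 31.8% of all probe sets tested, and below it for 5, against 29.7%. On array 2 alone, 9 of the 17 lay above the uninephrectomy array and 8 below. Counting on 1 array can only keep or raise these numbers, and the share of all probe sets was not counted that way. A difference of at least 2-fold on both arrays was found for 0 of the 17 and for 0.142% of all probe sets in the upward and 0.0533% in the downward direction. In limma's fit 0 of the 17 passed Benjamini-Hochberg adjustment at 0.05 (0% of all probe sets passed), and 2 of the 17 (11.8%) had an unadjusted p under 0.05, against 2.78% of all; the lowest adjusted p of a member was 0.9998.

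**Figure D1:**
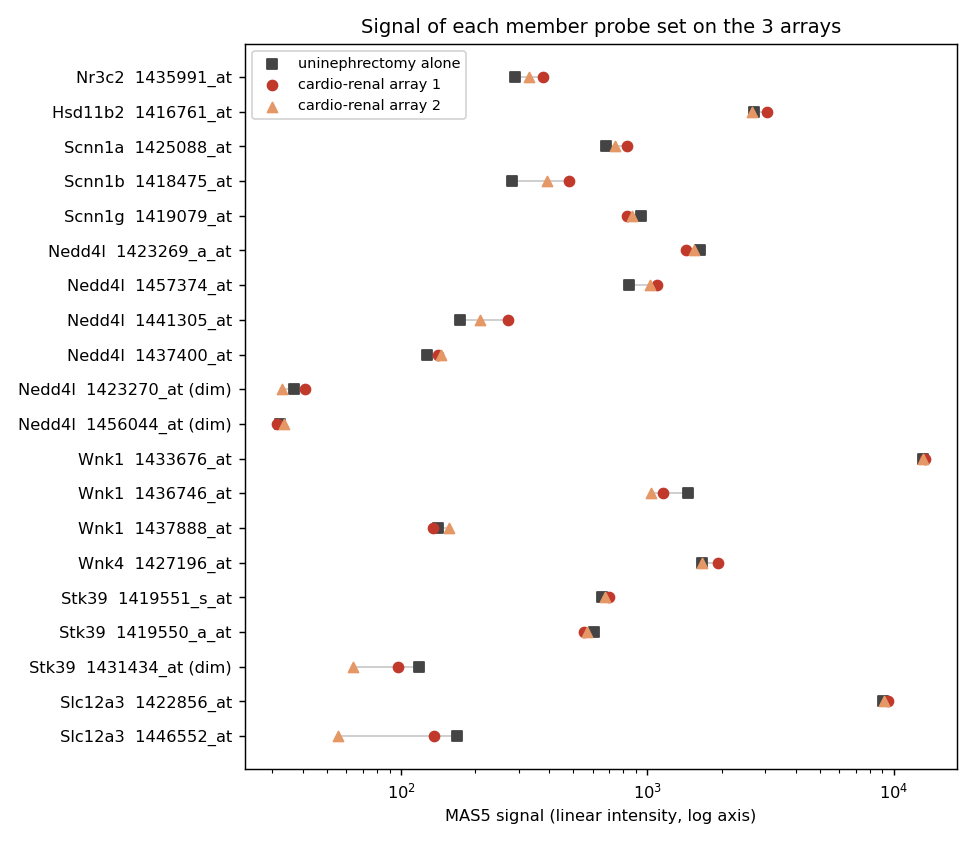
MAS5 signal (log axis) of each of the 20 probe sets on the uninephrectomy array (square), cardio-renal array 1 (circle) and cardio-renal array 2 (triangle); grey lines span the 3 arrays and "dim" marks the 3 probe sets under the filter. Signals of different probe sets are not comparable as levels; within a row, *Scnn1b* runs from 282 to 482, whereas the brightest *Slc12a3* and *Wnk1* probe sets have nearly coinciding points.

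The receptor and its gatekeeper came first. *Nr3c2* (probe set 1435991_at) had a signal of 290.0 with uninephrectomy alone, 377 on cardio-renal array 1 and 329 on array 2. Both cardio-renal values lay above the uninephrectomy value, and array 1 was the higher. The mean log2 difference was 0.26 ± 0.13 (SD, n = 2), more than the gap of 0.18 between the cardio-renal arrays; limma's 95% interval ran from -0.24 to 0.76 and its adjusted p was 0.9998. *Hsd11b2* (1416761_at), which encodes the dehydrogenase that keeps glucocorticoids off the receptor, had signals of 2711, 3073 and 2649 in the same order. The uninephrectomy value lay between the cardio-renal values, and the mean log2 difference of 0.073 ± 0.15 (SD, n = 2) was smaller than their gap of 0.21. Its interval in limma's fit ran from -0.33 to 0.47.

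The 3 ENaC subunit genes did not lie on the same side. *Scnn1b* (1418475_at), the beta subunit, had a signal of 282 with uninephrectomy alone, 482 on cardio-renal array 1 and 393 on array 2. These are ratios of 1.71 and 1.40 to the uninephrectomy signal, and neither cardio-renal value came near it. The mean log2 difference of 0.58 ± 0.20 (SD, n = 2) was the most positive of the 17 and exceeded the cardio-renal gap of 0.28. Limma's interval ran from 0.070 to 1.09 with an unadjusted p of 0.0305, and the adjusted p was 0.9998, so the difference did not pass the test over all probe sets. It was 0.72 on array 1, the array with low male-biased genes, and 0.44 on array 2 alone. *Scnn1a* (1425088_at), the alpha subunit, had signals of 676, 829 and 737. Both cardio-renal arrays were above the uninephrectomy array by 0.20 ± 0.12 on the log2 scale (SD, n = 2), with an interval from -0.23 to 0.63. *Scnn1g* (1419079_at), the gamma subunit, had signals of 943, 829.7 and 866. Both cardio-renal arrays were below the uninephrectomy array, at a mean log2 difference of -0.15 ± 0.043 (SD, n = 2), and limma's interval ran from -0.55 to 0.25. Each subunit gene has 1 probe set, so no other probe set of the same gene can be set beside these values. Whether the subunits differ from one another in their difference was not tested.

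*Scnn1g* and *Scnn1b* are neighbours on chromosome 7, on the same strand and with 0 genes annotated between them in RefSeq's GRCm38.p6 table, which is why their start regions are shown together. The 150 bases before the annotated start are at chr7:121734329-121734478 (plus strand) for *Scnn1g* and at chr7:121864888-121865037 (plus strand) for *Scnn1b*. They are given 5′ to 3′ with the GC box GGGCGG, on either strand, in capitals.
Scnn1g: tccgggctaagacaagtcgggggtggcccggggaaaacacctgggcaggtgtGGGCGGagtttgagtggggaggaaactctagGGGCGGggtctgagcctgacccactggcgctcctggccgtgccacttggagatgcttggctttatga
Scnn1b: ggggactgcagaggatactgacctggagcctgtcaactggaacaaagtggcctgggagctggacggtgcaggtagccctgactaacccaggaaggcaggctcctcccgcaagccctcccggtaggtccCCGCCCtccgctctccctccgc
The gamma gene has 2 GC boxes, starting 98 and 67 bases before the start, and the beta gene 1, in the opposite orientation, 22 bases before it. RefSeq windows were found for 7 of the 10 member genes, and all 7 held a GC box in the 250 bases before the start, against 32.7% of 32851 windows. In these 7, G and C made up 60.8% to 82.4% of the 250 bases. The motifs were not counted in other windows of like content, so neither share is a trait of these genes. The steroid hormone response half-site AGAACA, searched on both strands, was found in 0 of the 7 and in 16.1% of all windows; its absence says only that these letters are not in these windows.

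*Nedd4l* encodes NEDD4-2, the ligase that tags ENaC for removal from the membrane, and its 6 probe sets disagreed. The brightest (1423269_a_at) had a signal of 1639.7 with uninephrectomy alone, 1433 on cardio-renal array 1 and 1549.6 on array 2. Both cardio-renal values were below, by a mean log2 difference of -0.14 ± 0.079 (SD, n = 2). The next (1457374_at) had signals of 846, 1093 and 1023, both cardio-renal values above, at 0.31 ± 0.066 (SD, n = 2) and with a limma interval from -0.089 to 0.71. A dimmer one (1441305_at) had signals of 174, 271 and 209, also above on both, at 0.40 ± 0.24. Probe set 1437400_at had signals of 128, 142 and 145, above on both at 0.14 ± 0.021. The remaining pair did not reach the filter, with signals from 31.3 to 40.6, and had opposite signs on the cardio-renal arrays. So 3 of the 4 probe sets that reached the filter lay above the uninephrectomy array and 1 below, a span of 0.53 in mean log2 difference within 1 gene. The "_a" in an identifier marks a probe set designed to read several transcripts of 1 gene; which transcripts each of these reads was not determined here.

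*Wnk1* and *Wnk4* encode the kinases upstream of SPAK. The brightest *Wnk1* probe set (1433676_at) had signals of 13140.4 with uninephrectomy alone, 13409 on cardio-renal array 1 and 13105 on array 2, a mean log2 difference of 0.013 ± 0.023 (SD, n = 2). The 3 arrays were practically level on it, although limma's interval, which borrows the spread of other probe sets, still ran from -0.40 to 0.42. Another *Wnk1* probe set (1436746_at) had signals of 1457, 1155 and 1033. Here both cardio-renal arrays were below the uninephrectomy array, with ratios of 0.793 and 0.709, and the mean log2 difference was -0.41 ± 0.11 (SD, n = 2). Limma gave this an interval from -0.81 to -0.0048 and an unadjusted p of 0.0479, with an adjusted p of 0.9998. The third (1437888_at), with signals of 141, 135 and 156, had the uninephrectomy value between the others. Kidney is known to make a short, kinase-deficient *Wnk1* transcript from an internal promoter besides the long one, and these values do not say which form each probe set reads. *Wnk4* (1427196_at) had signals of 1671, 1936 and 1662. Array 1 alone was higher, and the mean log2 difference of 0.10 ± 0.15 (SD, n = 2) was smaller than the cardio-renal gap of 0.22.

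*Stk39* encodes SPAK, the kinase that phosphorylates NCC. Its probe set 1419551_s_at had signals of 654 with uninephrectomy alone, 701 on cardio-renal array 1 and 673 on array 2, and 1419550_a_at had 606, 551 and 567. The first lay above the uninephrectomy array on both cardio-renal arrays (0.068 ± 0.040, log2, SD, n = 2) and the second below it on both (-0.11 ± 0.028), so they differ in sign at sizes near the median absolute difference of all probe sets tested, 0.12. Both identifiers have endings (_s_at and _a_at) of shared-sequence probe sets, and which transcripts they read was not determined. The third (1431434_at) did not reach the filter, with signals of 118, 97.4 and 63.8.

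*Slc12a3*, the NCC gene and a marker of the distal convoluted tubule, was level on its bright probe set. That probe set (1422856_at) had signals of 9066 with uninephrectomy alone, 9475 on cardio-renal array 1 and 9165 on array 2. The mean log2 difference was 0.040 ± 0.034 (SD, n = 2), and limma's interval from -0.36 to 0.44 does not show that the groups are alike. A dim one (1446552_at), which barely reached the filter, had signals of 168, 136 and 55.4, both cardio-renal values below. Its mean log2 difference of -0.74 ± 0.69 (SD, n = 2) was the most negative of the 17, was smaller than its cardio-renal gap of 0.97, and had a limma interval from -1.65 to 0.16. The pair of probe sets therefore lay 0.78 apart in mean log2 difference, with array 2 making most of the distance.

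**Figure D2:**
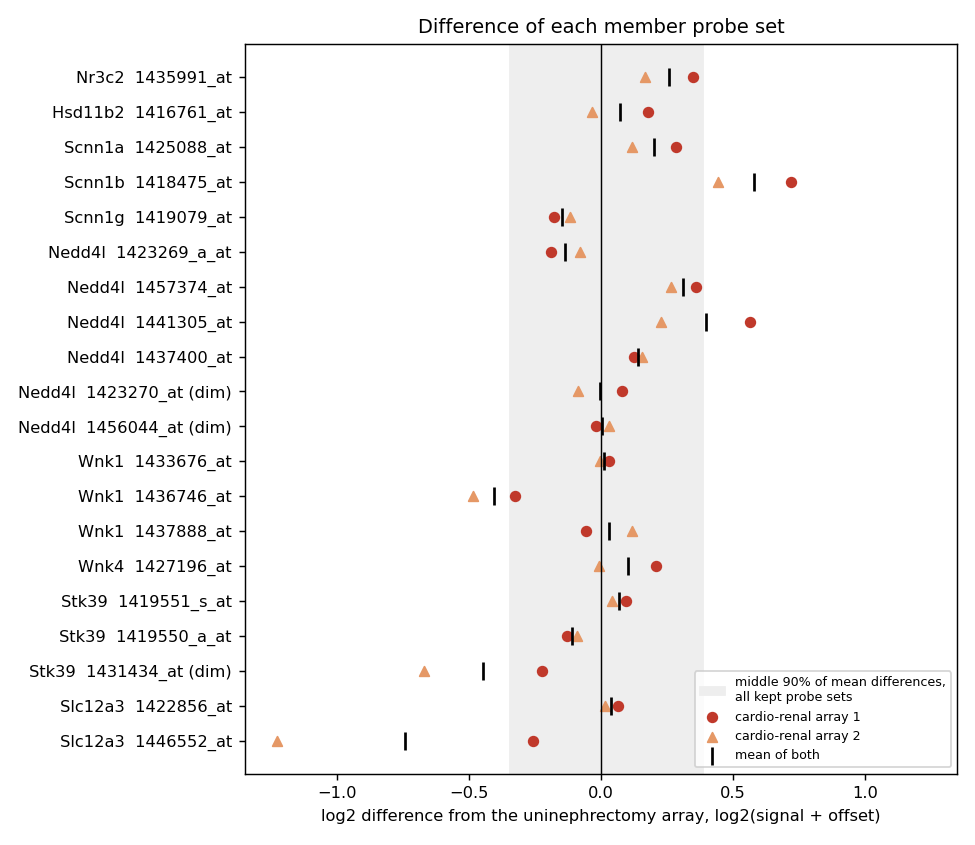
Log2 difference of cardio-renal array 1 (circle) and array 2 (triangle) from the uninephrectomy array for each probe set, with their mean (bar), over the middle 90% of mean differences of all 22493 probe sets that reached the filter (grey, -0.34 to 0.38). Of the probe sets that reached the filter, *Scnn1b* (0.58), 1 of *Nedd4l* (0.40), 1 of *Wnk1* (-0.41) and the dim 1 of *Slc12a3* (-0.74) have means outside the grey band.

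The mean difference was larger than the gap between the cardio-renal arrays for 11 of the 17 probe sets (64.7%, against 38.9% of all probe sets tested), with sizes from 0.068 to 0.58. Among genes with several probe sets that reached the filter, the span of mean log2 differences within the gene was 0.18 for *Stk39*, 0.44 for *Wnk1*, 0.53 for *Nedd4l* and 0.78 for *Slc12a3*. Apart from *Scnn1b*, the mean difference of each of the 10 genes on its brightest probe set, 0.26 or less in size, was smaller than each of the last 3 of these spans.

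The wider mineralocorticoid receptor list held 17 targets and regulators, of which 15 had a probe set and all 15 reached the filter. On each gene's brightest probe set 8 were higher on both cardio-renal arrays and 3 lower, with median log2 differences of 0.16 on array 1 and 0.054 on array 2; over all genes taken the same way, 30.6% were higher on both and 29.7% lower. In limma's fit 0 of the 15 passed Benjamini-Hochberg adjustment and 3 had an unadjusted p under 0.05, against 2.63% of all genes taken the same way. *Sgk1* (1416041_at), the aldosterone-induced kinase that restrains NEDD4-2, had signals of 7499 with uninephrectomy alone, 11589 on cardio-renal array 1 and 9577 on array 2. Both were above the uninephrectomy value, at 0.49 ± 0.19 (log2, SD, n = 2), with an unadjusted p of 0.0335 and an adjusted p of 0.9998 in limma. *Tsc22d3*, the steroid-induced leucine zipper gene GILZ, had signals of 1983, 2751 and 2679 on its brightest probe set, at 0.45 ± 0.027, with an unadjusted p of 0.0239 and an adjusted p of 0.9998 in limma. Its next probe set was also above on both, at 0.36, and the third had opposite signs. *Zbtb16*, a zinc-finger gene that corticosteroids induce, had signals of 167, 441 and 844 (1.71 ± 0.63, log2, SD, n = 2). Its unadjusted p was 0.000927 and its adjusted p 0.948 in limma. Another *Zbtb16* probe set gave 1.61 and the last had opposite signs. *Edn1*, the endothelin-1 gene, had signals of 155, 124 and 108, below on both at -0.34 ± 0.11. *Sgk1*, *Tsc22d3* and *Zbtb16* also respond to glucocorticoids in many cells, and hormone levels were not among these data.

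*Sgk1* was the 1 gene outside the 10 whose start regions were also searched, and a stretch of it is shown because it holds the full element that the half-site belongs to. Of 6 annotated *Sgk1* starts, 1 holds the palindrome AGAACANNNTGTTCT, which contains the half-site on both strands, 189 bases before the start. The 75 bases around it, at chr10:21993671-21993745 (GRCm38.p6, RefSeq, plus strand), are given 5′ to 3′ with the palindrome in capitals.
Sgk1: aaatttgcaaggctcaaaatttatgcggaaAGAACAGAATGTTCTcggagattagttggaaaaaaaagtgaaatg
The palindrome was found in 3 of 32851 windows, 0.00913%. The array does not tell the *Sgk1* starts apart, and the match is a description of the letters.

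Of 13 listed genes of ENaC processing and turnover, 12 had a probe set and 11 reached the filter; 0 lay above on both cardio-renal arrays and 7 below (against 30.6% and 29.7% of all genes taken this way), at medians of -0.098 and -0.080, and in limma's fit 0 passed adjustment and 0 had an unadjusted p under 0.05. The differences were small. *Usp10*, a deubiquitinating enzyme, had signals of 2044, 1703 and 1865 (-0.19 ± 0.092, log2, SD, n = 2), and *Pdpk1*, the kinase that activates SGK1, 2034, 1757 and 1799 (-0.19 ± 0.024). *Nedd4*, the relative of *Nedd4l*, had signals of 4564, 4117 and 4316 (-0.11 ± 0.048), with another probe set at -0.44 and the last of opposite signs. *Sec61a1*, a translocon subunit, stood at -0.17 ± 0.17 on its brightest probe set, while 2 of its 6 probe sets were higher on both arrays. *Prss8*, the channel-activating protease prostasin, had signals of 4871, 4469 and 4861, with array 2 level with the uninephrectomy array.

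The WNK-SPAK-NCC list had 10 of 14 genes past the filter, 6 higher on both (against 30.6% of all genes) and 2 lower (29.7%), with medians of 0.19 and 0.022; 0 passed adjustment in limma and 0 had an unadjusted p under 0.05. *Oxsr1*, the close relative of SPAK, had signals of 724, 924 and 822 (0.26 ± 0.12, log2, SD, n = 2). *Bsnd*, the chloride channel subunit barttin, had signals of 247, 317 and 271 (0.23 ± 0.14), and *Kcnj16*, a basolateral potassium channel subunit, 5344, 6114 and 5925 (0.17 ± 0.032). *Klhl2*, an adaptor of the ubiquitin ligase that degrades WNK kinases, was below on both, with signals of 1756, 1494 and 1510 (-0.22 ± 0.011). *Klhl3*, the adaptor best known for this, was not analysed here because no probe set was named for it alone. Of 6 genes of distal potassium secretion, 3 reached the filter. *Kcnk1*, a potassium channel of the K2P family, had signals of 1726, 3922 and 2342 (0.80 ± 0.52), with an unadjusted p of 0.0190 and an adjusted p of 0.9998 in limma; its other probe set stood at 1.02. *Kcnj1*, the secretory channel ROMK, had signals of 6079, 6163 and 5651. *Slc12a7*, a potassium chloride cotransporter, stood at -0.098 ± 0.0019 on its brightest probe set, and another probe set had opposite signs on the cardio-renal arrays (-0.18 and 0.11).

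**Figure D3:**
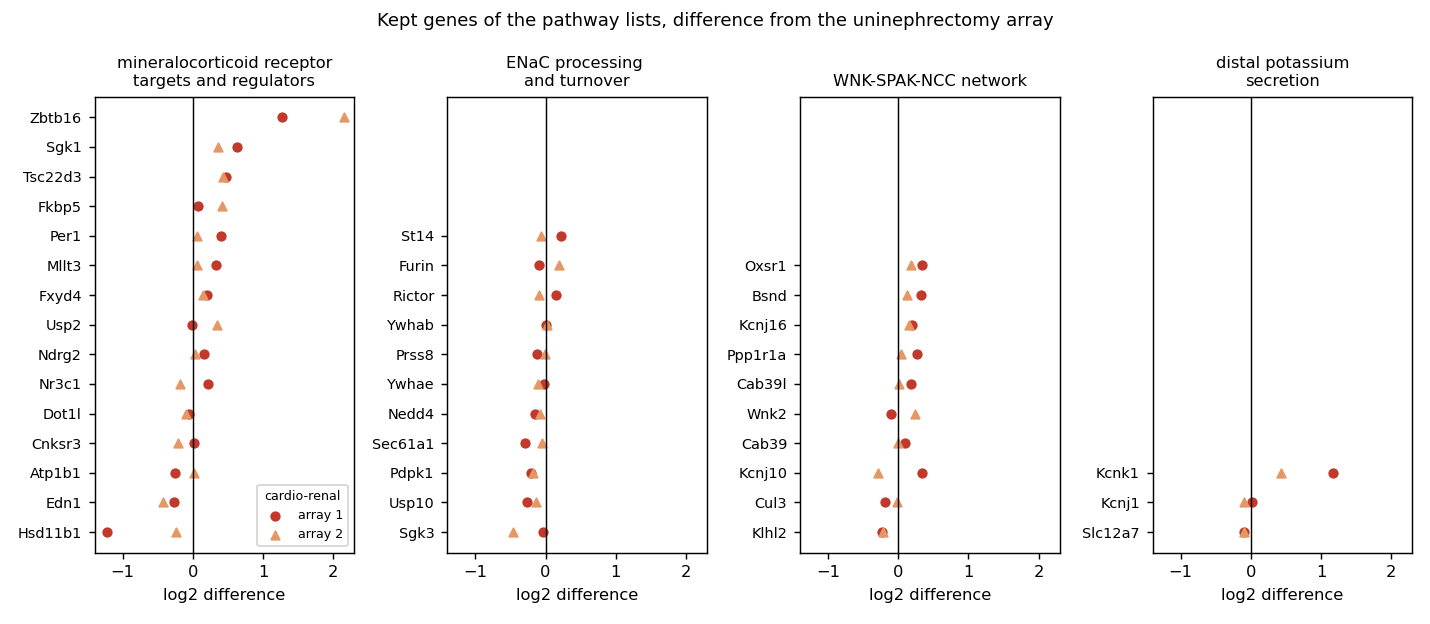
Log2 difference of cardio-renal array 1 (circle) and array 2 (triangle) from the uninephrectomy array for the genes of the 4 pathway lists that reached the filter, each by its brightest probe set and ordered by mean. In the ENaC processing and turnover panel 0 of 11 genes lie to the right of 0 on both arrays, and *Zbtb16*, at 1.26 and 2.16, is furthest right in the first panel.

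Markers of the segments that hold these genes gave small medians; over all genes taken the same way, 30.6% were higher on both cardio-renal arrays and 29.7% lower. Each marker was read on its brightest probe set. For markers outside the 10 genes, any other probe sets were not compared. Distal convoluted tubule markers, *Slc12a3* among them, had 5 of 8 genes higher on both cardio-renal arrays and 1 lower, with medians of 0.092 and 0.097. Connecting tubule markers had 1 of 5 higher and 0 lower (medians -0.068 and 0.018), and thick ascending limb markers 0 of 7 higher and 1 lower (-0.022 and 0.0053). Among 9 principal cell markers past the filter, with *Hsd11b2*, *Scnn1b* and *Scnn1g* among them, 3 were higher and 4 lower, with medians of 0.092 and -0.051. The 3 higher were *Scnn1b*, the basolateral water channel gene *Aqp4* (508, 1213 and 745) and *Fxyd4* (2387, 2747 and 2654), a sodium pump modulator. *Aqp4* had the largest difference of the list, at 0.87 ± 0.48 (log2, SD, n = 2), with an unadjusted p of 0.0126 and an adjusted p of 0.9998 in limma. The 4 lower were *Scnn1g*, the water channel genes *Aqp2* (2125, 1854 and 1902) and *Aqp3* (2504, 2122 and 2385), and the transcription factor gene *Gata3* (406, 404 and 381). Summed signals of the principal cell list were 12516, 13418 and 12601, and those of the distal convoluted tubule list 39364, 41630 and 42568. The adrenal list, which would show gland tissue near the kidney, had 3 of 10 genes past the filter and summed signals over all 10 of 651, 755 and 752. Over all 10, filter aside, 5 were higher on both cardio-renal arrays and 3 lower; those named here were picked after their values were seen. *Dbh*, the noradrenaline-forming hydroxylase gene of the medulla, reached the filter with signals of 115, 197 and 190 (0.63 ± 0.028, log2, SD, n = 2), with an unadjusted p of 0.0320 and an adjusted p of 0.9998 in limma. Of the genes of the last steps of corticosteroid synthesis, *Cyp11b1* (11.3, 43.1 and 37.2) was higher on both and the aldosterone synthase gene *Cyp11b2* (69.0, 49.1 and 22.5) lower on both, and neither reached the filter. The part of adrenal tissue in the values of the sodium transport genes was not tested.

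**Figure D4:**
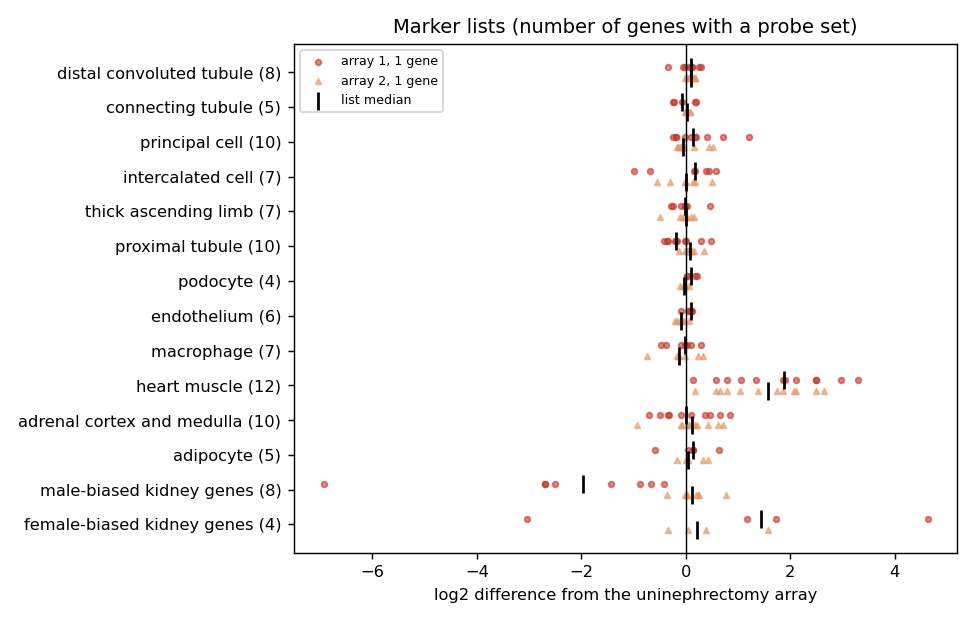
Log2 differences of marker genes from the uninephrectomy array on cardio-renal array 1 (circle) and array 2 (triangle), with list medians (bars) and the number of genes with a probe set in brackets. The medians of the nephron segment lists lie within 0.18 of 0, the 12 heart genes lie to the right of 0 on both arrays, and the 8 male-biased genes lie to the left of 0 on array 1.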

How the data were processed

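Per the submitters' processing notes, the authors made the deposited intensities with MAS5, in a version not given in the sources used here. Per the labels' protocols, 250 ng of total RNA was labelled with biotin by a 3' kit. The mean of each array, trimmed by 2% at each end, was 500.003, so the values were used as scaled. Mismatch subtraction in MAS5 makes dim probe sets noisy, and the number of arrays limits the precision.

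Of 45101 probe sets, 34945 had 1 gene symbol, 932 several, 9160 were unnamed here and 64 were controls. Signals were turned into log2(signal + 28.8), where the offset is the middle of the 3 arrays' 25th percentiles; a mean of 7.02 or more, the median of these means, was required of a probe set. Differences on this scale understate changes of dim probe sets.

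Limma 3.58.1 in R 4.3.3 (lmFit, eBayes with a trend, two-sided, Benjamini-Hochberg) was fitted over 22493 kept probe sets and 3 arrays. A run of the code on simulated data planted differences far larger than those of any member. It therefore says nothing about how the fit treats differences of the members' size. The fit's 1 residual degree of freedom comes from the cardio-renal pair, and the lone array is assumed to vary like that pair; an exact permutation test of 1 against 2 cannot go below p = 0.333. Lists took each gene's probe set with the highest mean, with up to 4 genes a pathway list named by the smaller of both differences; other genes outside that rule were chosen after their values were seen. Members and lists were chosen with earlier results of these data known. Promoters came from RefSeq (GRCm38.p6).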

Additional observations from a re-analysis of the deposited data

How the results depend on the processing

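In limma, 0 probe sets passed Benjamini-Hochberg adjustment under the settings tried, except that 3 did without shared-sequence probe sets (identifiers ending in _s_at, _x_at or _a_at): *Actc1*, *Myh6* and 1 unnamed here, and 0 of them members. Of the settings tried, unadjusted p under 0.05 was met by 625 of 22493 probe sets in the reported fit and by 1840 of 45037 without the filter. Of the member probe sets, 2 of 17 met it in the reported fit. With quantile normalization, and in limma without a trend, 1 of 17 did. In the upper quartile of signals it was 0 of 11, where *Scnn1b* was not tested. Member probe sets higher on both arrays, 8 as reported, numbered 4 in the upper quartile of signals, 5 with 1 probe set a gene and 4 with the mean of a gene's probe sets; those lower on both, 5 as reported, numbered 3 without shared-sequence probe sets and 2 with 1 probe set a gene. These settings test fewer probe sets. Leaving out either cardio-renal array gave 9 to 11 higher and 6 to 8 lower, counted on the 1 array left, which can only keep or raise the numbers. These are values without a test, because 1 array against 1 leaves no residual degree of freedom. Of 77 values of the member genes under the other alternatives planned, 72 kept their direction. Many of the 72 could not turn, because changing the filter or taking 1 probe set a gene re-reads the same probe set with the same value. A gene with 1 probe set also equals its own mean. The count of 72 therefore says little about how firm a direction is. The mean of a gene's probe sets, those under the filter included, turned *Nedd4l* to 0.12, *Wnk1* to -0.12, *Stk39* to -0.16 and *Slc12a3* to -0.35. Over the probe sets past the filter, a choice made after seeing the data, the mean was 0.18 for *Nedd4l* and -0.021 for *Stk39*, with *Wnk1* (-0.12) and *Slc12a3* (-0.35) as before because all of theirs are past it; the dim *Stk39* probe set stood at -0.45. In addition, *Nedd4l* stood at 0.31 without shared-sequence probe sets, where another probe set is its brightest. *Stk39* had no value in that setting, because its probe sets past the filter are all of the shared-sequence kind. *Scnn1b* lay between 0.53 and 0.63 where it was tested, with limma's adjusted p at 0.9997 or above, and was below the upper quartile of signals. No paired analysis was possible because the uninephrectomy group has 1 array and the labels pair no arrays across the groups.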

Other observations

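The following genes of the collecting duct were singled out after their values were seen. Intercalated cells, which share the collecting duct with the principal cells and transport acid and base, had markers on both sides. Of 7 such markers, 3 were higher on both cardio-renal arrays and 2 lower, against 30.6% and 29.7% of all genes taken the same way. Their median log2 differences were 0.18 on array 1 and -0.00052 on array 2. *Aqp6*, a water channel of their vesicles, had signals of 3423 with uninephrectomy alone, 1714 on cardio-renal array 1 and 2339 on array 2, and *Slc4a1*, the basolateral anion exchanger, had 1865, 1157 and 1516. *Rhcg*, an ammonia transporter, had 1048, 1388 and 1487. Also higher on both were *Foxi1* (548, 757 and 605) and *Atp6v1b1* (1391, 1579 and 1586). *Slc26a4*, which encodes the chloride-bicarbonate exchanger pendrin, had 2143, 3216 and 2142, so array 1 alone was apart. None of the 7 markers passed Benjamini-Hochberg adjustment in limma's fit. Each was read on its brightest probe set alone. The principal cell gene *Aqp4*, like *Kcnk1* and *Scnn1b*, was highest on array 1, the array whose male-biased genes were low; the part of that feature was not tested.

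*Hsd11b1*, whose enzyme regenerates glucocorticoid where *Hsd11b2* removes it, had signals of 6379 with uninephrectomy alone, 2727 on array 1 and 5391 on array 2. Its log2 differences were -1.22 on array 1, the array with low male-biased genes, and -0.24 on array 2. Limma gave an unadjusted p of 0.0621 and an adjusted p of 0.9998. The part of the array 1 feature in this value was not tested.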
